A study of Homo sapiens with 2 samples.

Results

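Aminoacyl-tRNA synthetases are the enzymes that attach each amino acid to its tRNA, and their expression was compared between a DLD1 line labelled as a knockout of HERV-R and control DLD1 cells. The members were chosen by gene symbol, as symbols of the form of 1 letter followed by ARS or ARS2, together with EPRS, FARSA and FARSB. They are 36 of 52402 gene symbols, of which 20 encode cytosolic enzymes and 16, with names ending in 2, mitochondrial ones. DLD1 is a human colorectal adenocarcinoma line, and HERV-R is a human endogenous retrovirus, the remnant of an ancient infection carried in the genome. The study's title places the knockout in the context of tumorigenic traits. RNA was sequenced in 2 libraries, 1 of cells with the genotype HERV-R Knockout and 1 of cells with the genotype WT, called control here. Both carry the treatment label cell transfection and the same protocol, in which Cas9 and guide RNA vectors were introduced and hygromycin then selected colonies. The sources used here do not say what the control cells received, whether a library came from 1 clone, or where the guide cuts. With 1 library per group there was no replicate check and no test, so each difference below is one between these libraries.

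The deposited counts summed to 16406308 in the knockout-labelled library and 21881122 in the control. ERV3-1, the gene of the HERV-R envelope protein, had 125 counts (7.62 CPM, that is, counts per 1000000) in the knockout-labelled library and 127 counts (5.80 CPM) in the control. The targeted RNA was thus not lower in the library labelled knockout, and gene-level counts do not see a small insertion or deletion, so the directions given here depend on that label. Of 10 colorectal epithelial markers 8 were measured, of which 1 differed at least 2-fold upwards and 3 downwards. CDX2, an intestinal transcription factor, had 298.2 CPM in the knockout-labelled library and 99.5 CPM in the control, a log2 ratio of 1.57, while the keratins KRT8, KRT18 and KRT19 were 2.21-, 2.85- and 2.44-fold lower in the knockout-labelled library. The other 4 had log2 ratios of -0.28 to 0.50, among them EPCAM with 749.8 CPM in the knockout-labelled library and 700.6 CPM in the control, and CDX1 was at 0 counts in both. Fibroblast markers summed to 2.68 CPM in the knockout-labelled library and 5.76 CPM in the control, with COL1A2, COL3A1, DCN and LUM at 0 in both. Most of this was PDGFRB, with 2.32 CPM in the knockout-labelled library and 4.66 CPM in the control. Blood and endothelial markers summed to 1.34 and 3.11 CPM in the same order, with PTPRC, CD3E, HBB and CDH5 at 0 in both. CD68 gave most of that sum, with 0.91 and 2.47 CPM. The part of these markers in the results was not tested, and in bulk RNA fewer cells that express a gene cannot be told apart from less RNA per cell.

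Each synthetase first activates its amino acid with ATP and then transfers it to the matching tRNA, and several proofread the product. The enzymes fall into class I and class II, which differ in the fold of the catalytic domain. In the cytosol of human cells 8 of the listed genes encode members of the multisynthetase complex, which is held together by AIMP1, AIMP2 and EEF1E1. EPRS joins the glutamyl and prolyl enzymes in 1 protein, FARSA and FARSB are the subunits of the phenylalanyl enzyme, and GARS and KARS each supply both cytosol and mitochondria. The other mitochondrial enzymes have nuclear genes of their own, serve the translation of respiratory chain subunits made inside the organelle, and are known for recessive diseases of nerve, muscle, ear and ovary. Many cytosolic synthetase genes are induced by ATF4, the transcription factor of the amino acid response, which binds C/EBP-ATF response elements.

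Letters that match such elements stood in the promoters of several cytosolic enzymes. RefSeq promoter windows of GRCh38.p14, from 250 bases before to 50 after the gene start, were matched for 30 of the 36 members, and the letters TGATGNAA were searched on both strands (TTNCATCA on the other). They stood in 6 of 16 cytosolic windows and in 1 of 14 mitochondrial windows, against 3.62% of 35116 promoters. All 6 cytosolic windows belonged to the 10 matched genes listed as ATF4-responsive, a list drawn from general knowledge of this response and so not independent of the element. The 7 matches are shown, 5′ to 3′ on the strand of the gene, with the matched letters in capitals:
AARS, chr16:70289676-70289703, minus strand: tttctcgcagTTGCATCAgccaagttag
CARS, chr11:3057408-3057435, minus strand: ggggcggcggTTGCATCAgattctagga
IARS, chr9:92293693-92293720, minus strand: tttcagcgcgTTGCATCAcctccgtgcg
MARS, chr12:57488054-57488081, plus strand: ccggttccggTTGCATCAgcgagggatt
NARS, chr18:57621805-57621832, minus strand: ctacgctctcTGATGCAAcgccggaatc
TARS, chr5:33440957-33440984, plus strand: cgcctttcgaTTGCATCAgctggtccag
YARS2, chr12:32756077-32756104, minus strand: tccacactgcTGATGGAAaaattaagtt
The 6 cytosolic genes share the 8 letters TTGCATCA, read on 1 strand or the other, while the YARS2 match differs from them within the free position. The match began 187 bases upstream of the start in AARS, 13 in IARS, 4 in MARS and 2 in CARS, and 2 and 14 bases downstream of it in TARS and NARS.

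Across the family the differences between the libraries were small. The 36 synthetase symbols together took 0.702% of the counts in the knockout-labelled library and 0.638% in the control. A gene was called measured at a mean of at least 1 CPM, and 20 cytosolic and 14 mitochondrial members were. The log2 ratio is that of CPM + 1, knockout-labelled over control, and a ratio of at least 1 or at most -1 is called 2-fold higher or lower. None of the 20 cytosolic members was 2-fold higher or lower, 2 of 14 mitochondrial members, MARS2 and CARS2, were higher, and 0 were lower. Of the 12644 genes compared, 6.78% were 2-fold higher and 5.69% 2-fold lower, so the 2 higher members of 34 are a share near the background. At 1.5-fold, 7 of 34 members were higher and 0 lower, beside 20.3% and 13.2% of all genes. The absence of lower members among these 34 genes was not tested.

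**Figure D1:**
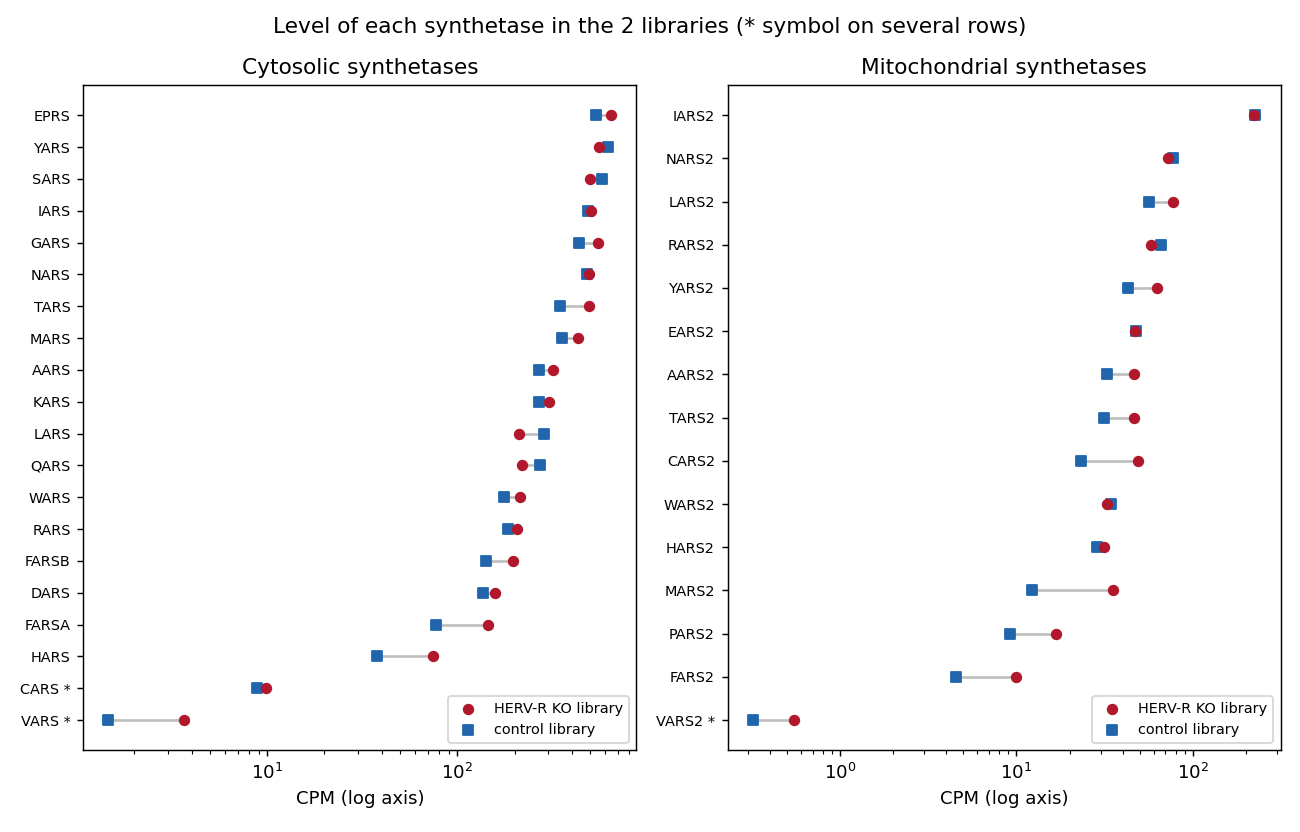
CPM on a log axis of each synthetase with a count, in the knockout-labelled library (red circles) and the control (blue squares), with 1 library each and so no error bars. Most cytosolic members lie above 100 CPM in both libraries, and the members marked with a star (CARS, VARS and VARS2, whose symbols stand on several rows) lie lowest in each panel; SARS2, at 0 counts in both, is not drawn.

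The values of 4 members have to be read apart from the rest, as their symbols stand on more than 1 row of the table. VARS, the cytosolic valyl enzyme, stands on 7 rows, VARS2 on 6, and CARS and SARS2 on 2 each. Most of these rows repeat the same neighbouring genes, as the alternative copies of a region in GRCh38 do. VARS had 60 counts in the knockout-labelled library and 32 in the control, all on 1 of its 7 rows, and VARS2 had 9 and 7 counts in the same order. SARS2 had 0 counts in both, although it encodes an enzyme that mitochondrial translation needs. A floor of 3 counts corresponds to 0.183 CPM in the knockout-labelled library and 0.137 CPM in the control. CARS had 161 counts in the knockout-labelled library and 193 in the control. Low values were frequent in such symbols generally: 55.6% of 955 protein-coding symbols on more than 1 row had 0 counts in both libraries, against 22% of 17426 on 1 row. TUBB, a tubulin gene used by all dividing cells, stands on 8 rows and had 4 counts in the knockout-labelled library and 5 in the control. Why these symbols hold few counts was not tested, and the values of the 4 members are not read here as levels of their RNA.

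Among the cytosolic enzymes, 16 of 20 had a log2 ratio above 0 and 4 below, with a median of 0.22 beside 0.12 for all genes compared, of which 58.1% were above 0 and 41.9% below. The other scalings shift the log2 ratio of CPM by -0.12 to -0.16, and that of CPM + 1 by less in genes with few counts (VARS stood at 0.84 with TMM and 0.92 with total counts). With them 13 or 14 of 20 were above 0, with medians of 0.07 to 0.10 beside -0.03 to 0.00 for all genes. Summed, the cytosolic enzymes had 6217 CPM in the knockout-labelled library and 5691 CPM in the control, a ratio of 1.09 (95% counting interval 1.08 to 1.10). These intervals cover counting error only, and reads that are PCR copies make them too narrow. With total counts, 15 of the 20 intervals lay above 1, 4 below and 1 around it, beside 44.8% and 30.5% of all genes above and below. Large counts make such intervals narrow, and this tally depends on the scaling. The lower bounds of IARS, NARS, KARS and RARS lay at log2 ratios of 0.01 to 0.11, less than the shift of each other scaling.

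HARS, the histidyl enzyme, had the highest log2 ratio of the cytosolic members on a single row. It had 1228 counts (74.9 CPM) in the knockout-labelled library and 831 counts (37.98 CPM) in the control, 1.97-fold higher (1.80 to 2.16). The value lies just under the 2-fold rule, at a log2 ratio of 0.96. FARSA, the alpha subunit of the phenylalanyl enzyme, had 2372 counts (144.6 CPM) in the knockout-labelled library and 1692 counts (77.3 CPM) in the control, 1.87-fold higher (1.76 to 1.99). FARSB, the beta subunit, had 3222 counts (196.4 CPM) in the knockout-labelled library and 3105 counts (141.9 CPM) in the control, 1.38-fold higher (1.32 to 1.45). Both subunits were thus higher, the alpha subunit by more, and per kilobase of coding length FARSA stood at 0.792 of FARSB in the knockout-labelled library and 0.586 in the control. TARS, the threonyl enzyme, had 493 CPM in the knockout-labelled library and 345.6 CPM in the control (1.43-fold higher; 1.38 to 1.47). VARS was 2.50-fold higher (1.60 to 3.97) from the few counts given above, and its log2 ratio was 0.92.

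The 4 lowest cytosolic members were enzymes for leucine, glutamine, serine and tyrosine. LARS, which charges leucine and also serves as a leucine sensor of mTORC1, had 3454 counts (210.5 CPM) in the knockout-labelled library and 6245 counts (285.4 CPM) in the control, a ratio of 0.738 (0.707 to 0.769). QARS had 218.8 CPM in the knockout-labelled library and 273.2 CPM in the control (0.801; 0.768 to 0.835). SARS had 495.7 CPM in the knockout-labelled library and 576 CPM in the control (0.861; 0.837 to 0.885). YARS, an enzyme whose secreted fragments act as cytokines, had 552.2 CPM in the knockout-labelled library and 617.2 CPM in the control (0.895; 0.871 to 0.919). All 4 ratios lay below 1, and none was close to the 2-fold rule.

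The remaining 11 cytosolic members ranged from a log2 ratio of 0.05 to 0.33. At the top were GARS, with 549.7 CPM in the knockout-labelled library and 438 CPM in the control, and WARS, the interferon-inducible tryptophanyl enzyme, with 214.6 CPM and 174.9 CPM in the same order. At the bottom were IARS, with 503.8 CPM in the knockout-labelled library and 484 CPM in the control, and NARS, with 494.8 CPM in the knockout-labelled library and 478 CPM in the control. The log2 ratios of IARS and NARS were 0.06 and 0.05 and turned below 0 with each other scaling. EPRS, the fused glutamyl and prolyl enzyme, had 642.7 CPM in the knockout-labelled library and 536.4 CPM in the control. The rest of this middle group were MARS, with 428.1 CPM in the knockout-labelled library and 356.1 CPM in the control, AARS (318.2 and 269.1 CPM in the same order), DARS (157.1 and 136.1 CPM), KARS (303.1 and 269.8 CPM), RARS (204.9 and 183.5 CPM) and CARS (9.81 and 8.82 CPM).

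**Figure D2:**
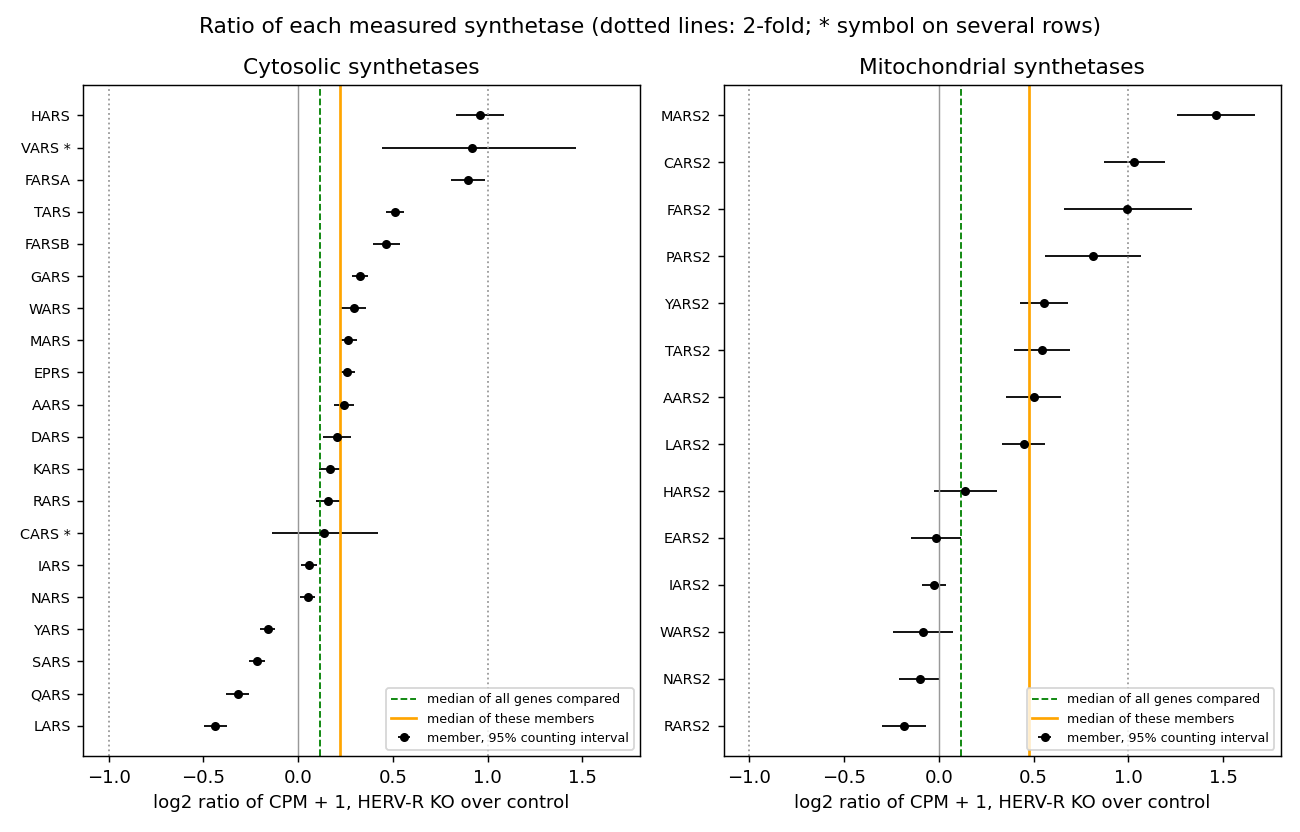
Log2 ratio of CPM + 1, knockout-labelled library over control, for the 20 cytosolic and 14 mitochondrial members measured, with 95% counting intervals, the median of each panel (orange), the median of all genes compared (green, dashed) and the 2-fold rule (dotted). Most cytosolic members lie between 0 and 0.5, with a gap between TARS at 0.51 and FARSA at 0.89. Mitochondrial members leave gaps between HARS2 at 0.14 and LARS2 at 0.45 and between CARS2 at 1.03 and MARS2 at 1.46.

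The mitochondrial enzymes spread more widely, with 9 of 14 measured members above 0 and 5 below and a median log2 ratio of 0.47. Of all genes compared 58.1% were above 0, and with the other scalings 8 or 9 of the 14 members were. They are described below as a higher group, 8 members at 0.45 or above, and a lower group, 6 at 0.14 or below. This division was made after the values were seen. The widest gap lay elsewhere, between CARS2 at 1.03 and MARS2 at 1.46. The median falls between LARS2 and AARS2, the lowest members of the first group, so it is not a typical value and shifts readily when a member is added. Summed, the mitochondrial enzymes had 808.4 CPM in the knockout-labelled library and 693 CPM in the control, a ratio of 1.17 (1.14 to 1.19). With total counts, the counting interval lay above 1 for 8 members, below 1 for 1 and around 1 for 5, beside 44.8% and 30.5% of all genes above and below.

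MARS2, which charges methionine in mitochondria, was the member furthest from the control. Its gene lies on the plus strand of chromosome 2 (GRCh38, GENCODE 29, 197705369 to 197708387). It had 582 counts (35.5 CPM) in the knockout-labelled library and 268 counts (12.2 CPM) in the control, 2.90-fold higher (2.50 to 3.36). MARS2 stayed 2-fold higher under each scaling and each pseudocount tried. The cytosolic methionyl enzyme MARS, a member of the multisynthetase complex, was 1.20-fold higher (1.16 to 1.24).

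CARS2, the mitochondrial cysteinyl enzyme, was next. Its gene lies on the minus strand of chromosome 13 (110641412 to 110713603). It had 801 counts (48.8 CPM) in the knockout-labelled library and 511 counts (23.4 CPM) in the control, 2.09-fold higher (1.87 to 2.34). Its log2 ratio of 1.03 dropped under 1 when a pseudocount of 5 or any other scaling was used.

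FARS2, the phenylalanyl enzyme, which works as a single chain in mitochondria, had 164 counts (9.996 CPM) in the knockout-labelled library and 99 counts (4.52 CPM) in the control, 2.21-fold higher (1.71 to 2.87). The added 1 CPM puts its log2 ratio at 0.99, just under the rule, and with a pseudocount of 0.1 it passed. PARS2, the prolyl enzyme, had 276 counts (16.8 CPM) in the knockout-labelled library and 200 counts (9.14 CPM) in the control, 1.84-fold higher (1.53 to 2.22). YARS2, TARS2, AARS2 and LARS2 completed the higher group. YARS2 had 63.0 CPM in the knockout-labelled library and 42.6 CPM in the control, TARS2 46.3 and 31.4 CPM in the same order, AARS2 46.5 and 32.5 CPM, and LARS2 77.6 and 56.6 CPM, with log2 ratios of 0.45 to 0.55.

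The lower group lay close to the control. RARS2, the arginyl enzyme, had 954 counts (58.2 CPM) in the knockout-labelled library and 1447 counts (66.1 CPM) in the control, a ratio of 0.879 (0.809 to 0.955). With total counts it was the single mitochondrial member whose interval lay below 1. NARS2 had 72.1 CPM in the knockout-labelled library and 77.4 CPM in the control (0.931; 0.864 to 1.004). WARS2 had 32.5 CPM in the knockout-labelled library and 34.5 CPM in the control (0.942; 0.842 to 1.05). IARS2, the isoleucyl enzyme, had 222.2 CPM in the knockout-labelled library and 226.3 CPM in the control (0.982; 0.941 to 1.03). The intervals of NARS2, WARS2 and IARS2 include 1 with total counts. EARS2 had 46.9 CPM in the knockout-labelled library and 47.4 CPM in the control, and HARS2 31.5 and 28.5 CPM in the same order.

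Set against each other, the median log2 ratio of the cytosolic enzymes lay below that of the mitochondrial ones (0.22 against 0.47), a difference of -0.25 that common scaling leaves nearly as it is (-0.25 with each other scaling). It shrank to -0.12 with no minimum level, where VARS2 and SARS2 join with their near-empty rows, and to -0.16 when GARS and KARS, which supply both compartments, were counted in both. Taken amino acid by amino acid the direction was split: of 13 pairs with both enzymes measured, the cytosolic ratio was the lower in 7 and the higher in 6. The median difference was -0.04, but the wider differences lay mostly toward a lower cytosolic ratio. They were -1.20 for methionine, -0.89 for cysteine, -0.88 for leucine, -0.71 for tyrosine and -0.55 for proline. Of the 6 the other way, the widest were 0.82 for histidine and 0.38 for tryptophan. Without the cysteinyl pair, whose cytosolic gene CARS stands on several rows, the split was 6 and 6 of 12. The median difference then changed sign, to 0.02. EPRS stands in 2 of these pairs, with EARS2 and with PARS2. The phenylalanyl enzymes were not paired, as FARSA and FARSB together form the cytosolic one. FARS2 had a log2 ratio of 0.99, above FARSA at 0.89 and FARSB at 0.47. Among pairs of genes on single rows, the widest with a higher mitochondrial ratio were those for methionine and leucine. LARS2 was 1.37-fold higher (1.27 to 1.48), whereas LARS was at 0.738 of the control. The widest pair the other way was that for histidine.

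**Figure D3:**
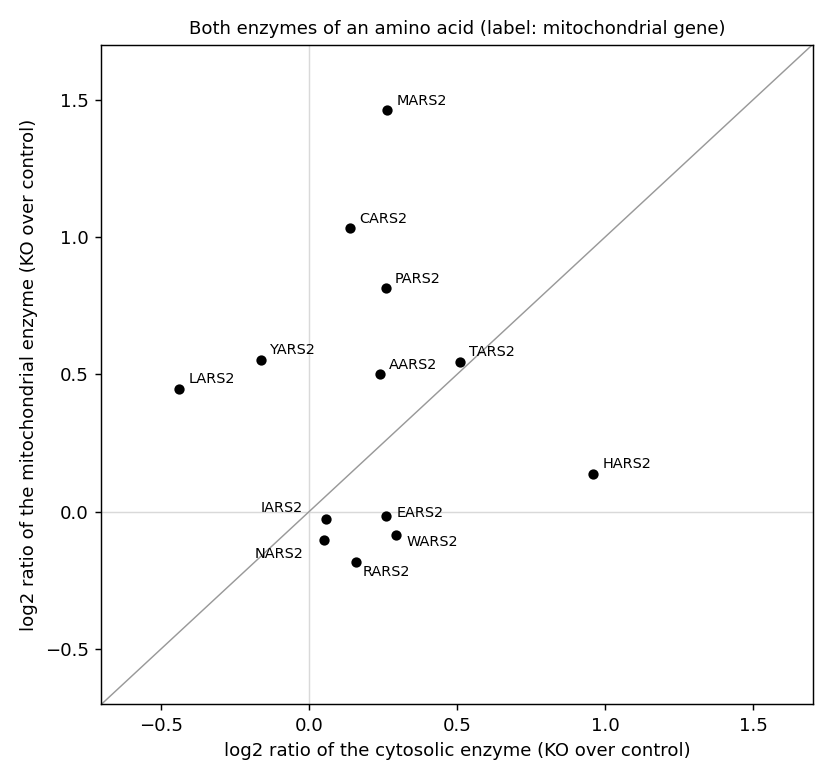
Log2 ratio (CPM + 1, knockout-labelled over control) of the mitochondrial enzyme on the vertical axis against that of the cytosolic enzyme for the same amino acid, 13 pairs with both measured and labelled by the mitochondrial gene, with the line of equal ratios. Of the 13 points 7 lie above the line, MARS2 furthest, and 6 below it, HARS2 furthest. The phenylalanyl enzymes were not paired and are not drawn.

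The histidyl pair is unusual in its layout, because HARS and HARS2 lie head to head on chromosome 5 and are read away from each other. In RefSeq their starts are 85 bases apart, with 84 bases between them. HARS was 1.97-fold higher, while HARS2, with 517 counts in the knockout-labelled library and 624 in the control, had a ratio of 1.10 (0.982 to 1.24). In GENCODE 29 the genes overlap by 437 bases on opposite strands, and the sources used here do not say whether counting used strand, so reads in the overlap cannot be told apart. The stretch between the RefSeq starts (chr5:140691371-140691454) carries the letters CCGGAAGT 2 times, counting both strands (ACTTCCGG on the other). They match a consensus site of ETS transcription factors. The letters were searched after the stretch had been seen, and 2.34% of 35116 promoters hold them in the 84 bases before the start. That share is for promoters holding the letters at all, not for 2 copies. Both ends of the stretch are shown on the plus strand, with these letters in capitals, since by the RefSeq starts the stretch lies upstream of both genes:
Next to the HARS start, chr5:140691371-140691398: gACTTCCGGctatcgagtcgctgggtcg
Next to the HARS2 start, chr5:140691427-140691454: aaaattatttccggctcctcCCGGAAGT
FARS2 also has a divergent neighbour, LYRM4, a gene of iron-sulfur cluster assembly whose start lies 57 bases away. LYRM4 had 15.7 CPM in the knockout-labelled library and 18.4 CPM in the control, a log2 ratio of -0.22 beside 0.99 for FARS2. A search for divergent RefSeq starts within 1000 bases, made after the values of the members were known, found 7 such pairs with a row for the neighbour. In 2 of the others the log2 ratios lay close together, at -0.18 for RARS2 beside -0.19 for ORC3 and at 0.29 for WARS beside 0.39 for WDR25. KARS stood at 0.17 beside -0.06 for TERF2IP, EARS2 at -0.01 beside -0.28 for UBFD1, and SARS2 and MRPS12 were at 0 counts in both libraries.

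Levels of different genes were compared per kilobase of the longest coding sequence in GENCODE 29. On this scale the 18 cytosolic members on a single row had a median of 137.4 CPM per kilobase (49.02 to 348.6) in the knockout-labelled library and 121 (24.9 to 389.7) in the control. The 14 mitochondrial members had a median of 28.8 (7.39 to 73.2) in the knockout-labelled library and 19.7 (3.34 to 74.5) in the control. YARS, SARS and NARS led the cytosolic enzymes in both libraries, with 348.6, 308.2 and 301 CPM per kilobase in the knockout-labelled library and 389.7, 358.2 and 290.7 in the control. HARS was the lowest cytosolic member on a single row in both, and FARS2 the lowest measured mitochondrial one. The cytosolic enzyme had the higher level in 12 of 13 pairs in both libraries. The exception was the cysteinyl pair, in which CARS is one of the symbols on several rows. The methionyl pair differed most in proportion between the libraries: MARS stood at 7.95 times the level of MARS2 in the knockout-labelled library and 19.2 times in the control.

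The 7 highest ratios among the cytosolic enzymes stood outside the multisynthetase complex. None of the 8 enzymes of the multisynthetase complex was 2-fold higher or lower, and their log2 ratios ran from -0.44 to 0.27 with a median of 0.16. The 12 free enzymes ran from -0.22 to 0.96 with a median of 0.31, and 7 of them, VARS included, lay above every enzyme of the complex. This difference was not tested. Class I enzymes had a median of 0.15 (10 members) and class II enzymes 0.28 (10 members). The 13 genes listed as ATF4-responsive had a median of 0.24, and the other 7 a median of 0.21. By promoter the order was the other way. The 6 cytosolic genes with the response element shown above had a median of 0.19 (0.05 to 0.51), and the 10 matched genes without it 0.28 (-0.32 to 0.96). DARS, LARS, VARS and YARS had no matched promoter window and are in neither group.

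The ATF4 response outside the synthetases was mixed as well. Of 24 measured genes, 2 were 2-fold higher and 0 lower, beside 6.78% and 5.69% of all genes, so the higher count is near the background. The median of their log2 ratios was 0.09, which the other scalings put at -0.03 to -0.07. The higher ones were ATF5, a transcription factor related to ATF4 (3.46-fold; 2.81 to 4.29), and SESN2, a leucine sensor upstream of mTORC1 (2.68-fold; 2.49 to 2.89). ATF4 itself, chosen after its values were seen, had 538.9 CPM in the knockout-labelled library and 805.3 CPM in the control. ASNS, the asparagine synthetase gene and a standard ATF4 target, chosen likewise, had 598.5 CPM in the knockout-labelled library and 872.2 CPM in the control. Neither passed the 2-fold rule.

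The direct partners of the synthetases differed among themselves. AIMP2, a scaffold protein of the multisynthetase complex, had 952 counts (58.0 CPM) in the knockout-labelled library and 622 counts (28.4 CPM) in the control, 2.04-fold higher (1.84 to 2.26), and lost the 2-fold rule under each other scaling. AIMP1 had 75.8 CPM in the knockout-labelled library and 89.3 CPM in the control, and EEF1E1 57.5 and 56.6 CPM in the same order. None of 8 relatives and proofreading factors was 2-fold higher or lower, and those with the most counts were DTD1, a deacylase that removes D-amino acids from tRNA, with 75.9 CPM in the knockout-labelled library and 103.7 CPM in the control, and SECISBP2, a selenocysteine factor, with 56.3 and 63.1 CPM in the same order. No mitochondrial glutaminyl synthetase is among the members, and in human mitochondria this tRNA is charged by EARS2 and then amidated by the products of QRSL1, GATB and GATC. These genes and the others of the amidation and formylation list, 6 measured in all, had log2 ratios of 0.12 to 0.60 and none was 2-fold higher. Those with the most counts were the elongation factor gene TUFM, with 421.8 CPM in the knockout-labelled library and 302.5 CPM in the control, and the initiation factor gene MTIF2, with 219 and 201.9 CPM in the same order.

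Among genes that make and modify tRNA, more were 2-fold higher than lower. Over 8 lists of tRNA biology other than the synthetases and the ATF4 response, 25 of 131 measured genes (19.1%) were 2-fold higher and 0 lower, with a median log2 ratio of 0.47. The synthetases stood at 2 of 34 (5.88%) with a median of 0.25, and all genes at 6.78% with a median of 0.12. Split by compartment, the mitochondrial synthetases stood at 2 of 14 with a median of 0.47, and the cytosolic ones at 0 of 20 with 0.22. All these values are for total counts. The differences between these lists were not tested. Of all genes compared, 857 were 2-fold higher and 719 lower with total counts. With the other scalings 544 to 601 of 12648 to 12650 genes were higher and 879 to 945 lower. Of 29 tRNA methylation genes 7 were 2-fold higher, or 6 with each other scaling. LCMT2, an enzyme of wybutosine synthesis, had 405 counts in the knockout-labelled library and 111 in the control (4.87-fold; 3.94 to 6.06), and ALKBH8, which acts on the wobble uridine, was 3.08-fold higher (2.74 to 3.48). Of 37 other base modification genes 7 were higher, or 4 with each other scaling. TRMU, which thiolates mitochondrial tRNA, was 3.05-fold higher (2.65 to 3.52), and MOCS3, a sulfur carrier enzyme of cytosolic tRNA thiolation, 2.87-fold (2.35 to 3.53).

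Of 17 genes of tRNA end processing and export 4 were 2-fold higher, under every scaling tried, beside 6.78% of all genes with total counts. ELAC1, an endonuclease of tRNA 3′ ends, had 242 counts in the knockout-labelled library and 52 in the control (6.21-fold; 4.58 to 8.54), and HSD17B10, a subunit of mitochondrial RNase P, was 2.42-fold higher (2.24 to 2.61). Of 21 genes of RNA polymerase III transcription, the machinery that transcribes tRNA genes, 6 were higher, or 2 to 3 with the other scalings. POLR3B, the second-largest subunit, was 2.96-fold higher (2.55 to 3.44), and POLR3C 2.33-fold (2.12 to 2.58). Of 10 splicing genes 0 were higher, and those with the most counts were DDX1, an RNA helicase of the tRNA ligase complex, with 337.9 CPM in the knockout-labelled library and 179.2 CPM in the control, and C14orf166, another component of that complex, with 135.9 and 135.2 CPM in the same order. None of the genes in these lists was 2-fold lower under any scaling tried, beside 5.69% of all genes with total counts. The tRNAs themselves could not be followed, since the 22 mitochondrial tRNA rows held 29 counts in all in the knockout-labelled library and 24 in the control.

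**Figure D4:**
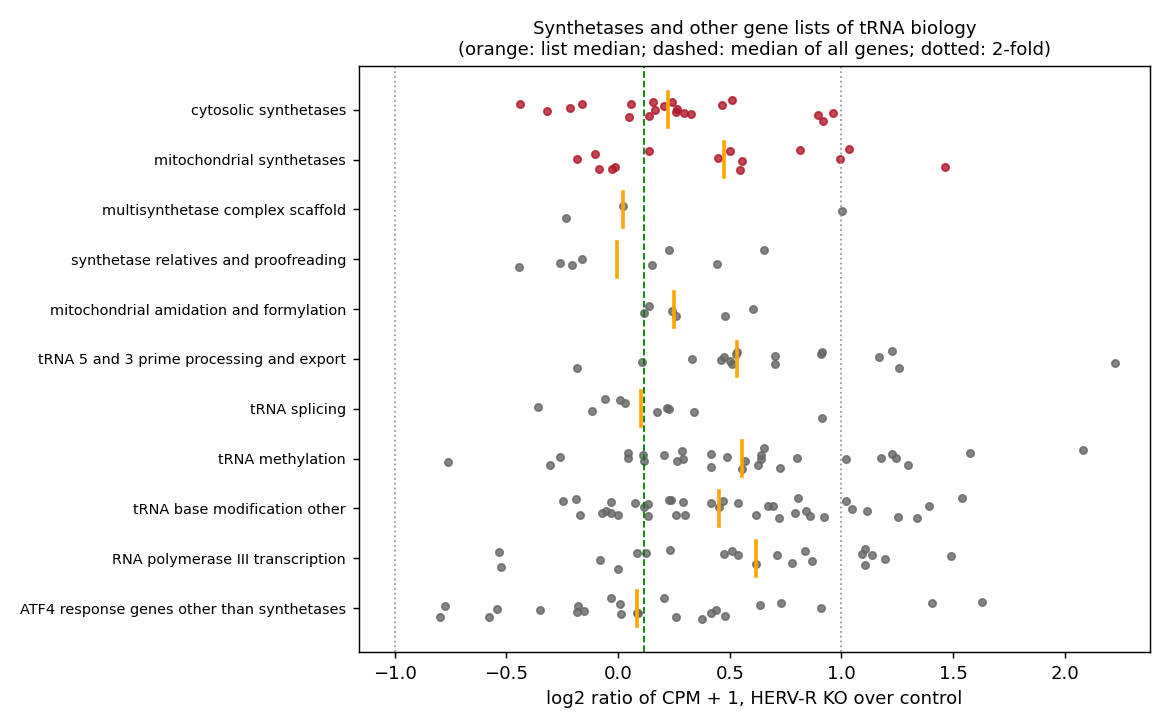
Log2 ratio (CPM + 1, knockout-labelled over control) of each measured gene in the synthetase lists (red) and in other lists of tRNA biology and the ATF4 response (grey), with the list median (orange), the median of all genes compared (dashed) and the 2-fold rule (dotted); points are spread vertically for legibility. The medians of the methylation, end processing and polymerase III lists lie between 0.53 and 0.62, above those of both synthetase lists.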

How the data were processed

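RNA was measured in 2 libraries of DLD1 cells, 1 per group. The authors deposited raw counts per gene symbol, as whole numbers with no normalization. Alignment used TopHat and the build GRCh38, per the submitters' processing notes. For the counting program, annotation, strand setting and filters, the sources used here give nothing. There were 58173 rows per table. Rows of 1 symbol were summed, counts were scaled by the library total, and log2((CPM + 1)/(CPM + 1)) was taken for the 12644 genes whose mean reached 1 CPM. Intervals are exact (Clopper-Pearson, 95%, conditional on the summed count). No test was possible with 1 library per group. The members and lists were chosen with earlier results of these data known. Some genes are not reported here.

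Coding lengths came from GENCODE 29, since no protein table was given, and promoter windows from RefSeq (GRCh38.p14). Every member could be named; from each other list the 2 highest and 2 lowest genes past the 2-fold rule were to be named, or its 2 most abundant where none passed. ATF4, ASNS, TUBB, divergent neighbours and the markers beyond this rule were chosen after their values were seen. Python 3.11.15, SciPy 1.17.1, edgeR 4.0.16 (TMM) and DESeq2 1.42.0 (size factors) were used, and the procedure was tested on simulated data. Alternatives were other scalings, pseudocounts, minimum levels and fold rules.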

Additional observations from a re-analysis of the deposited data

How the results depend on the processing

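No paired analysis was possible because each group has 1 library, and for the same reason no library could be left out. With TMM, upper quartile and median-of-ratios scaling, the median log2 ratio of cytosolic synthetases was 0.10, 0.082 and 0.066, that of mitochondrial ones 0.35, 0.335 and 0.319, and 1 mitochondrial member (MARS2) was 2-fold higher in place of 2. A pseudocount of 5 also left 1. With a pseudocount of 0.1, 1 cytosolic member, VARS, was 2-fold higher, and FARS2 joined MARS2 and CARS2. At 1.5-fold, 3 cytosolic and 4 mitochondrial members were higher, and at 3-fold 0 mitochondrial members. With no minimum level the mitochondrial median was 0.339 and the difference of medians -0.12, since the 2 members added have few or no counts. That difference kept its sign under all alternatives run, from -0.27 to -0.12, with -0.16 where GARS and KARS were counted in both compartments. HARS had the highest cytosolic log2 ratio with total and TMM scaling, and VARS with the other scalings and with a pseudocount of 0.1. Sign changes of single members occurred with other scalings only: IARS and NARS in all of them, and CARS and HARS2 with the median of gene ratios. Leaving out symbols on several rows was chosen after seeing the data and changed no count of members past the rule. Among members with counts, the counting intervals on the log2 scale were widest for VARS2, VARS, FARS2 and CARS, and SARS2 had 0 counts.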
